A study of Mus musculus with 54 samples.

Results

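The activator protein-1 (AP-1) genes Fos, Fosb, Fosl1, Fosl2, Jun, Junb, Jund, Atf3, Maff and Batf were followed through 27 arrays of mouse Ba/F3-gp130 cells. They were taken by symbol, and these 10 of the 19920 genes tested had 1 gene-level probe set each. AP-1 is a dimer of basic leucine zipper (bZIP) proteins. Jun proteins pair with themselves or with Fos proteins, whereas Fos proteins need a Jun partner. The dimer binds a short palindromic DNA element and is switched on within minutes to an hour of a growth factor or cytokine signal. Fos, Fosb, Jun and Junb are classical immediate early genes, which means that they are transcribed without new protein synthesis. Fosl1 and Fosl2 encode Fos-related proteins without the strong activation domain of Fos. Atf3 is a stress-induced bZIP factor, Maff encodes a small Maf protein that has no activation domain of its own, and Batf pairs with Jun proteins in lymphocytes.

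Ba/F3-gp130 cells are labelled as a pro-B cell line in need of Hyper-IL-6. This designer cytokine joins interleukin-6 to the soluble interleukin-6 receptor and signals through the receptor chain gp130. Untransfected parental cells and lines transfected with the cargo internalization receptor (CIR) constructs CIR-1, CIR-2 or CIR-3 were compared. Cells of each line were left unstimulated or given a GFP-PFC emulsion at 50 µl per ml for 1 h. A ninth group was parental cells given 100 ng/ml Hyper-IL-6 for 1 h as the positive stimulation control. All groups were cultured with 10 ng/ml Hyper-IL-6 and 10% serum, washed, and kept serum-free for 3 h. The labels name no vehicle for the emulsion and do not say whether a CIR line is 1 clone or whether the 3 arrays of a group are separate cultures, so p-values measure the spread between arrays, which may be technical. The stated purpose was to see what the constructs themselves do to gene expression. Unstimulated arrays are numbered 1, 3 and 5 and stimulated arrays 2, 4 and 6.

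Signals are deposited values on a log2 scale, where a difference of 1 is a doubling, and each gene is compared only with itself because probes differ in brightness. Tests are limma fits over all 27 arrays with Benjamini-Hochberg adjustment over 19920 genes, and a gene is called at an adjusted p under 0.05. Array medians lay between 7.52 and 7.65 and lower quartiles between 6.22 and 6.31. Each AP-1 gene was above the lower quartile of its array on 27 of 27 arrays. The 9 group means of Atf3, at 7.42 to 7.60, lay near the array medians. Of 7 early haematopoietic and interleukin-3 receptor markers, 6 were above the lower quartile on 27 of 27 arrays. Among these were the pan-leukocyte gene Ptprc and the shared receptor chain Csf2rb. The gp130 gene Il6st was above it on 24. Of 11 measured pro-B and B-lineage markers, 6 were above it on 27 of 27 arrays (Cd79a, Cd79b, Vpreb1, Vpreb2, Igll1 and Pax5), Blnk on 19, Rag1 on 16, and Rag2, Ebf1 and Il7r on 0. Of 6 mast-cell and basophil markers 3, among them Gata2, were above it on 27 of 27 arrays, 2 on some and 1 on 0. All 3 measured erythroid markers, among them Gata1, were above it on 27 of 27 arrays. So were 3 of 5 T-cell markers and 3 of 6 macrophage and neutrophil markers. A signal above the lower quartile therefore does not by itself show that a gene is expressed. Arrays numbered 1 and 2 stood apart for some AP-1 genes. Jund and Fosl2 lay below their group mean on that array in 9 of 9 groups, whereas Jun lay above it on array 5 or 6 in 9 of 9 groups.

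Promoters are shown for Fos, Junb and Fosl2, which were called after Hyper-IL-6, and for Batf, called only in the contrast of Hyper-IL-6 with GFP-PFC. Jun is added as the founding Jun gene. Fosl1 was called after Hyper-IL-6 too but had no promoter entry. The 250 bases before the annotated start come from RefSeq (GRCm38.p6), printed 5′ to 3′ along the gene. They are Fos at chr12:85473640-85473889 on the plus strand, Junb at chr8:84978749-84978998 on the minus strand, Fosl2 at chr5:32136222-32136471 on the plus strand, Batf at chr12:85686470-85686719 on the plus strand and Jun at chr4:95052223-95052472 on the minus strand. Capitals mark motif matches.
Fos: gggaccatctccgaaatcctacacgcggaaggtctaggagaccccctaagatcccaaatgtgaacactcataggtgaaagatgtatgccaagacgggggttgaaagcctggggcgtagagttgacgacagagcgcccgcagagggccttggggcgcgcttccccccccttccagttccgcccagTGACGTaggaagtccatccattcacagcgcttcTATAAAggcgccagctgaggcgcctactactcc
Junb: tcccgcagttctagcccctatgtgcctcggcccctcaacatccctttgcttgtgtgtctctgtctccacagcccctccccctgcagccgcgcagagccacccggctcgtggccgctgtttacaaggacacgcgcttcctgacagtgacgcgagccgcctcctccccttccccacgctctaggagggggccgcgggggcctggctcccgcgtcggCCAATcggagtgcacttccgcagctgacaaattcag
Fosl2: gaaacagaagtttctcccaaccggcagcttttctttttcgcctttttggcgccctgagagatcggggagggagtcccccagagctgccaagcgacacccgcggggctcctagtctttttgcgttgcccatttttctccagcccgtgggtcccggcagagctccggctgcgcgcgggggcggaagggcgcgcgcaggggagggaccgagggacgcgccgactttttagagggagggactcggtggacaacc
Batf: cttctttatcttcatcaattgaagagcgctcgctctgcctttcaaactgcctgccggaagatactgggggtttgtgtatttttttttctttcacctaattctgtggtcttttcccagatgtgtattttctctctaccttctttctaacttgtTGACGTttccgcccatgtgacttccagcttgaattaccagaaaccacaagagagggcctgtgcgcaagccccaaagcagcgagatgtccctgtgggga
Jun: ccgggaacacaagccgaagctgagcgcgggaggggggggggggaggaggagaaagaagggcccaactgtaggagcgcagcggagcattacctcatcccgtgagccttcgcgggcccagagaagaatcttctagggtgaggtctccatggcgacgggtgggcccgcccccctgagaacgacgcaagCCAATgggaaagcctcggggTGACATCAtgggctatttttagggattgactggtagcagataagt
Both strands were searched for 7 motifs. The cAMP-response element core TGACGT lay 66 to 61 bases before the Fos start and 98 to 93 bases before the Batf start, and 6.47% of 32851 RefSeq promoter windows of this length hold it. The AP-1-like element TGACATCA, through which Jun is known to regulate itself, lay 45 to 38 bases before the Jun start (2.93% of windows). CCAAT lay 65 to 61 bases before the start of Jun and 36 to 32 bases before that of Junb (33.8%), and TATAAA lay 33 to 28 bases before that of Fos (12.4%). The AP-1 site TGANTCA (6.75%), the STAT site TTCNNNGAA (7.02%) and the CArG box (1.47%) had no match in these 5 windows. A missing match does not mean that a promoter lacks such a site. Bases farther upstream and looser spellings were not searched. The Fosl2 window held none of the 7 motifs. Of the 10 genes, 9 matched the promoter table. No matches overlap in the 5 windows, and a match describes letters, not a bound site.

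Hyper-IL-6 raised 4 of the 10 AP-1 genes in parental cells after 1 h and lowered 0 (0.0402% of all genes were called lower). Fos, Junb, Fosl2 and Fosl1 passed the test, with 3.42-fold, 2.75-fold, 2.14-fold and 1.96-fold higher signals than in unstimulated cells. Across all genes 0.733% were called higher. The groups did not overlap for 7 of the 10 genes, each higher after Hyper-IL-6, against 4.85% of all genes. The median difference of the 10 genes was 0.81 against -0.013 for all genes tested. In such bulk samples, more responding cells and more RNA per cell cannot be told apart.

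Fos, the partner that gives the Fos-Jun dimer its strong activation domain, had signals of 8.64, 8.88 and 8.44 on unstimulated arrays 1, 3 and 5. After Hyper-IL-6 its signals were 9.29, 11.08 and 10.90 on arrays 2, 4 and 6. Array 2 was well below the other 2 stimulated arrays but above every unstimulated array. The difference was 1.77 (SE 0.31, adjusted p = 0.00239 in limma). It was 2.34 (SE 0.23) without Hyper-IL-6 array 2. A fit to the 6 compared arrays alone gave the same difference with an adjusted p of 0.337.

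Junb, an immediate early Jun protein and a known early target of interleukin-6 type cytokines, moved with the smallest error relative to its size. Its signals were 8.87, 9.09 and 9.12 without stimulation and 10.13, 10.75 and 10.58 after Hyper-IL-6. The lowest stimulated array was again array 2, and the groups lay far apart. The difference was 1.46 (SE 0.12, adjusted p = 7.77e-08 in limma). Junb was called as well when only the 6 compared arrays were fitted (adjusted p = 0.0134).

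Fosl2 had signals of 10.04, 10.16 and 10.05 without stimulation. They were 10.67, 11.45 and 11.43 after Hyper-IL-6, with no overlap. The difference was 1.10 (SE 0.17, adjusted p = 0.000584 in limma), and it was not called when only the 6 compared arrays were fitted (adjusted p = 0.118). Fosl1 had signals of 8.90, 9.21 and 9.49 without stimulation and 9.94, 10.41 and 10.16 after it. The groups did not overlap, but the gap between them was narrow against the spread at rest. The difference was 0.97 (SE 0.23, adjusted p = 0.0402 in limma), close to the threshold, and the call ended under 8 of 16 other settings. These included leaving out unstimulated array 1 or 3, or Hyper-IL-6 array 4 or 6.

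Fosb, Jun, Batf, Maff, Jund and Atf3 did not pass in this comparison. Batf came closest, with signals of 9.05, 9.05 and 8.82 at rest and 9.24, 9.72 and 9.64 after Hyper-IL-6, a difference of 0.56 (SE 0.14, adjusted p = 0.0519 in limma). Its groups did not overlap, and the call was made with the replicate block (adjusted p = 0.000372), which puts the arrays numbered 1 and 2, 3 and 4, and 5 and 6 together. The Hyper-IL-6 arrays did not deviate together with their block (correlations of -0.46 to 0.060 over genes, 24 pairs), so that fit is no paired test of them. Maff had signals of 7.75, 7.73 and 7.62 at rest and 7.86, 8.17 and 8.33 after Hyper-IL-6, and differed by 0.42 (SE 0.12, adjusted p = 0.145 in limma). Without Hyper-IL-6 array 2 both Batf (0.71, adjusted p = 0.00677) and Maff (0.55, adjusted p = 0.0156) were called.

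Fosb and Jun varied more between arrays of a group than Batf and Maff did. Fosb had signals of 9.73, 9.94 and 10.23 at rest and 10.34, 11.07 and 11.13 after Hyper-IL-6, a difference of 0.88 with a 95% interval of 0.025 to 1.73 (adjusted p = 0.729 in limma), and its groups did not overlap. Jun had signals of 9.48, 9.38 and 9.90 at rest and 9.88, 10.59 and 10.51 after Hyper-IL-6, a difference of 0.74 (0.17 to 1.32, adjusted p = 0.476). For Jun the lowest stimulated array fell just under the highest unstimulated one. Jund, the Jun family member known for steady expression, differed by 0.24 (-0.087 to 0.57), and Atf3 by 0.089 (-0.11 to 0.29). The 9 group means of Atf3 spanned 0.18 and those of Jund 0.39, against 2.40 for Fos.

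**Figure D1:**
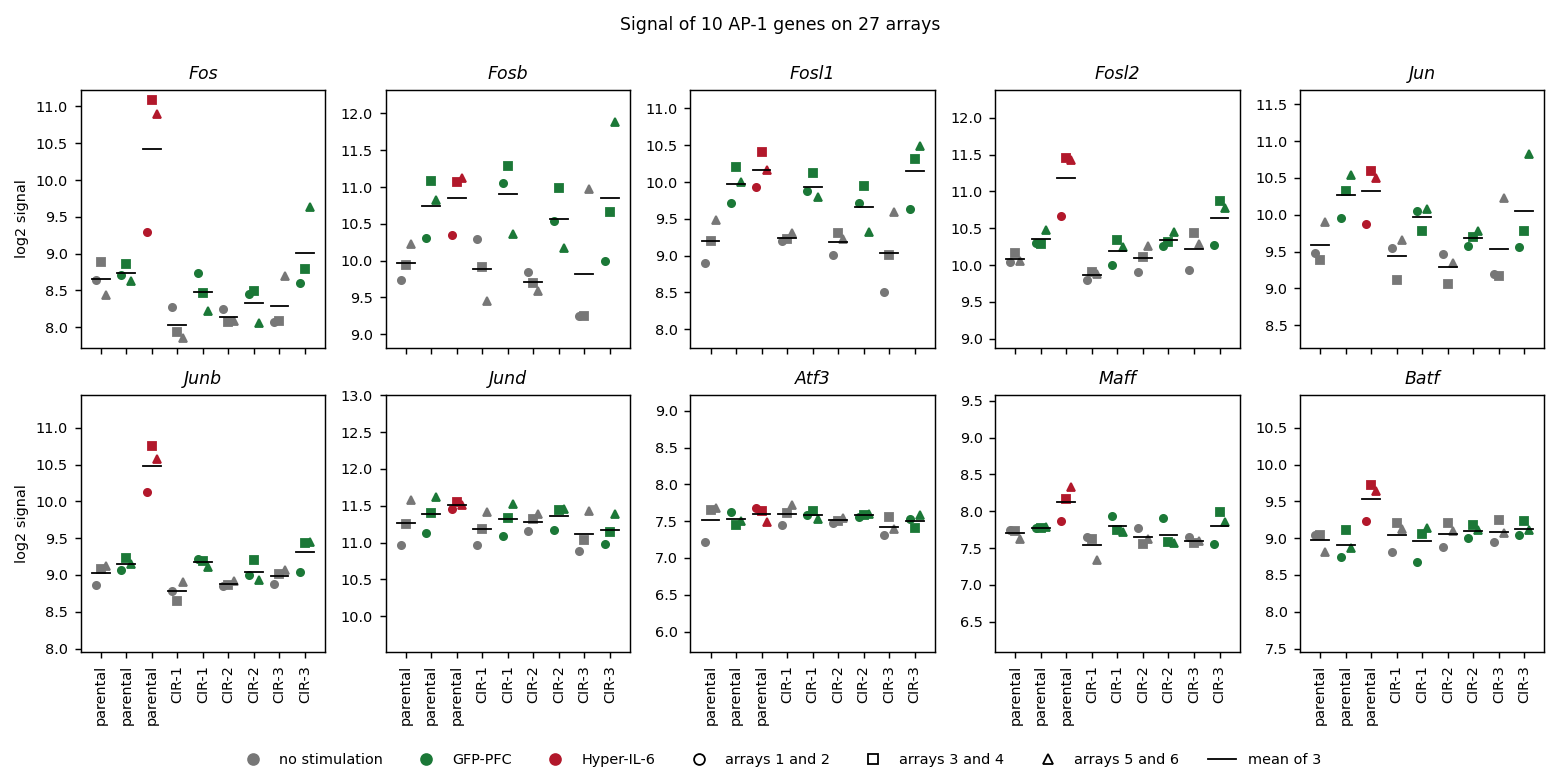
Signal of each AP-1 gene on the 27 arrays, with 1 panel a gene and the log2 signal on the vertical axis (panels cover the same span). Columns are the 9 groups, colours the stimulation, marker shapes the array numbers and bars the means of 3. The 3 Hyper-IL-6 arrays of Junb, at 10.13 to 10.75, lie above each of the other 24 arrays.

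In the fit without the replicate block, the GFP-PFC emulsion raised 1 of the 10 AP-1 genes over the mean of the 4 lines. This was Fosl1, which was 1.70-fold higher than without stimulation. Fosb was 1.89-fold and Jun 1.45-fold higher on average without passing the test. Across all genes 0.186% were called higher and 7 genes were called lower. Fosl1, Fosb, Jun, Fosl2 and Junb were each higher in 12 of 12 pairs of consecutively numbered arrays of a line, a pattern that 1.33% of all genes had. The labels do not say what the numbers mark, and the pairing was inferred from these same arrays. With the replicate block, Fosl1, Fosb, Jun, Fosl2 and Junb, 5 of the 10 genes, were called higher, as were 0.673% of all genes. The median difference of the 10 genes was 0.28 against -0.011 for all genes.

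Fosl1 had unstimulated signals of 8.90, 9.21 and 9.49 in parental cells and 9.20, 9.22 and 9.31 in CIR-1. The CIR-2 line gave 9.01, 9.31 and 9.23 and the CIR-3 line 8.51, 9.01 and 9.59. With GFP-PFC they were 9.71, 10.20 and 10.00 in parental cells and 9.88, 10.13 and 9.80 in CIR-1, with 9.71, 9.95 and 9.32 for CIR-2 and 9.63, 10.32 and 10.49 for CIR-3. Within each line the stimulated arrays lay above the unstimulated ones, although in CIR-2 and CIR-3 only narrowly. The mean difference was 0.76 (SE 0.11, adjusted p = 0.0024 in limma). It was 0.76 (SE 0.13, adjusted p = 0.0188) over the 3 CIR lines alone, for which 0.0653% of all genes were called higher and 1 of 10 AP-1 genes was. Those lines have no arrays in common with the Hyper-IL-6 comparison. That call over the CIR lines ended without CIR-1 array 4, CIR-2 array 1, CIR-2 array 4 or CIR-3 array 6 (0 of 10 genes called in each). It also ended with exon-level values (0.40, adjusted p = 0.418 in limma), as did the call over the 4 lines (0.41, adjusted p = 0.082). Over these lines Junb was called too without CIR-3 array 2 and Fosb without CIR-3 array 5, and with the replicate block 3 genes were, Fosl1, Fosl2 and Junb, against 0.346% of all genes called higher.

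Fosb had the largest mean difference of the 10 genes, 0.92 (SE 0.21, 1.89-fold), but an adjusted p of 0.0659 in limma (0.0289 with the block). Its arrays spread widely within CIR-3, with unstimulated signals of 9.25, 9.24 and 10.98 and GFP-PFC signals of 9.99, 10.66 and 11.89. CIR-3 arrays 5 and 6 were the highest of their groups for Fosb, Fos and Jun. Without CIR-3 unstimulated array 5, the mean difference of Fosb over the 4 lines was 1.06 (adjusted p = 0.00508) and that of Jun was 0.62 (adjusted p = 0.0257), and both were called. Without CIR-3 array 2 Fosb (1.02, adjusted p = 0.0177) and Junb (0.28, adjusted p = 0.0316) were called too, 3 genes with Fosl1, and without CIR-1 array 6 Fosb was (0.99, adjusted p = 0.0426).

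Jun differed by 0.54 (SE 0.14, adjusted p = 0.15 in limma and 0.0116 with the block). Fosl2 differed by 0.32 (SE 0.084, adjusted p = 0.171, and 0.00567 with the block), and Junb by 0.25 (SE 0.062, adjusted p = 0.118, and 0.0189 with the block). These are about 1.45-fold, 1.25-fold and 1.19-fold. Fos differed by 0.36 (SE 0.16, adjusted p = 0.696) and was higher in 10 of 12 pairs. Maff differed by 0.14, Jund by 0.096 and Atf3 by 0.038, none of them called with or without the block, and Batf by -0.018 with a 95% interval of -0.16 to 0.12.

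Of the 38 marker genes measured for B-lineage and other blood cells, 0 were called in limma after Hyper-IL-6 (0 at an unadjusted p under 0.05) and 1 after GFP-PFC, the mast-cell receptor chain Ms4a2 (0.57, adjusted p = 0.0149 in limma), 1 of 6 mast-cell and basophil markers. The summed linear signal of those 6 ran from 9120 to 12452 on unstimulated arrays and from 9498 to 13909 with GFP-PFC. Gata2, with a mean log2 signal of 13.3 against 8.37 for Ms4a2, makes up most of that sum, which says little about the other markers. The mast-cell protease Cpa3 was above the lower quartile on 0 of 27 arrays. The part of such cells in the AP-1 differences was not tested.

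**Figure D2:**
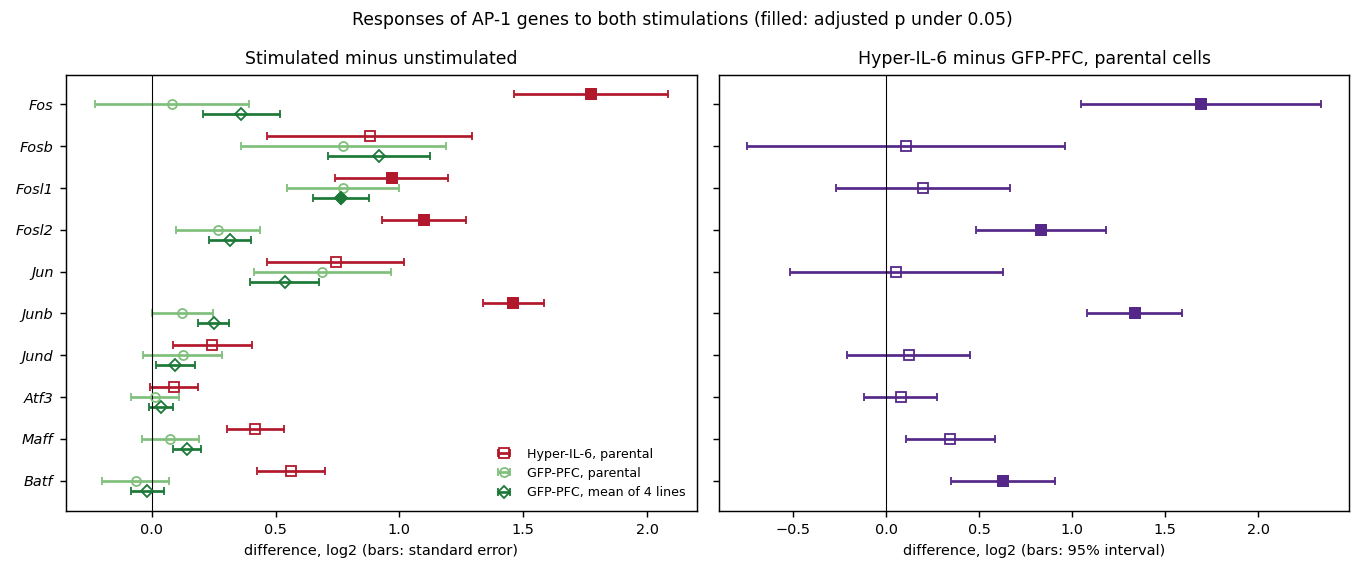
Differences in log2 signal for the 10 AP-1 genes. The left panel gives stimulated minus unstimulated (bars are standard errors) and the right panel Hyper-IL-6 minus GFP-PFC in parental cells (bars are 95% intervals), with filled symbols for an adjusted p under 0.05. After Hyper-IL-6 in parental cells, Fos, Junb and Fosb lie at 1.77, 1.46 and 0.88. The GFP-PFC values of 0.36, 0.25 and 0.92 for Fos, Junb and Fosb are means over the parental and CIR lines. In parental cells alone, the GFP-PFC differences of Fos and Fosb were 0.082 and 0.77.

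In single lines 0 of the 10 genes were called after GFP-PFC, and 0% of all genes were called in each of the 4 lines in limma. At an unadjusted p under 0.05 there were 2, 4, 2 and 5 AP-1 genes in parental, CIR-1, CIR-2 and CIR-3 cells, against 3.92%, 2.45%, 1.33% and 2.14% of all genes. The groups did not overlap, with GFP-PFC higher, for 5 of 10 genes in parental cells (2.02% of all genes) and 6 in the CIR-1 line (1.92%). For CIR-2 the number was 5 (2.99%) and for CIR-3 it was 1 (2.56%). Fosl1 was among them in each line, with differences of 0.77, 0.69, 0.48 and 1.11 in parental, CIR-1, CIR-2 and CIR-3 cells. In CIR-3 it passed with the replicate block (adjusted p = 0.0202, against 0.308 without it) and without CIR-3 array 5 (1.39, adjusted p = 0.0318).

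Fosb differed by 0.77, 1.02, 0.86 and 1.02 in the same order. In CIR-3 its difference was 1.60 without array 5 and 0.50 without array 6. Jun differed by 0.69, 0.53, 0.40 and 0.53. Fos was the most uneven, at 0.082, 0.45, 0.20 and 0.72 in that order. Its unstimulated arrays in CIR-3 gave 8.07, 8.09 and 8.70 and its GFP-PFC arrays 8.60, 8.80 and 9.63, so that the highest resting array lay inside the stimulated range. The difference between lines was tested directly. In limma's F-test of the response among the 4 lines 0 of 10 genes passed, as did 0% of all genes (0.939% at an unadjusted p under 0.05), with no AP-1 gene below an unadjusted p of 0.288.

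The 6 pairs of lines were also compared for each gene, 60 comparisons in all, and none had an unadjusted p under 0.05. The smallest was 0.0616 for Fosl1, whose GFP-PFC difference was 0.63 larger in CIR-3 than in CIR-2 with a 95% interval of -0.033 to 1.30. For Fos, CIR-3 against parental cells gave 0.64 with an interval of -0.27 to 1.55. The intervals allow differences between lines as large as the responses themselves, so these data do not show that the lines respond alike.

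**Figure D3:**
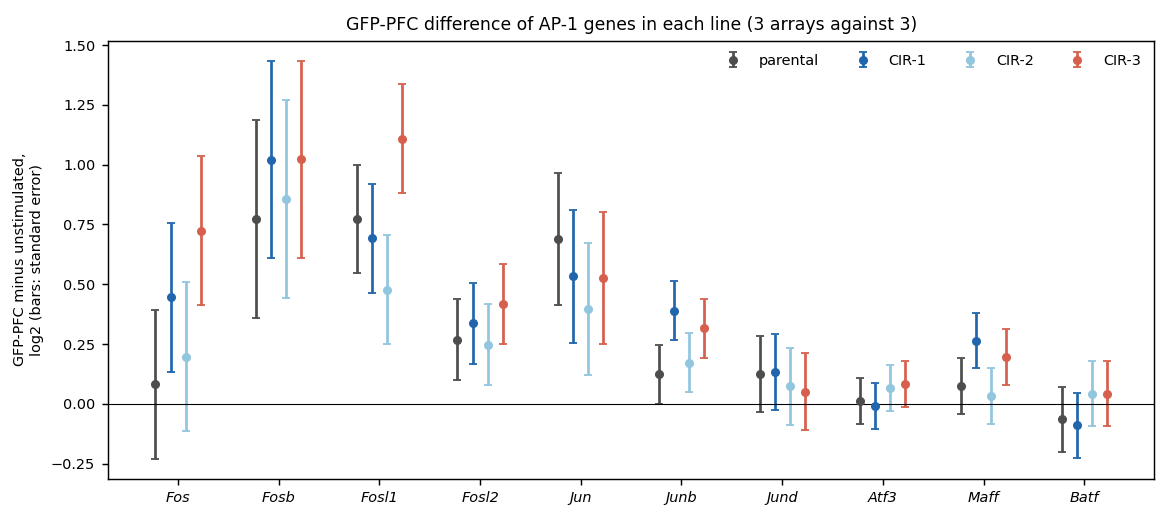
GFP-PFC minus unstimulated log2 signal of each AP-1 gene in parental, CIR-1, CIR-2 and CIR-3 cells, 3 arrays against 3, with standard errors from limma as bars. Fosb and Fosl1 lie between 0.48 and 1.11 in the 4 lines.

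Set against each other in parental cells, the stimulations differed for 4 of 10 AP-1 genes, all higher with Hyper-IL-6. Across all genes 0.492% were called higher. The groups did not overlap for 5 of 10, against 6.08% of all genes. Fos was 3.23-fold higher than with GFP-PFC (1.69, SE 0.31, adjusted p = 0.00704 in limma) and Junb 2.52-fold (1.34, SE 0.12, adjusted p = 3.47e-07). Fosl2 was 1.78-fold higher (0.83, SE 0.17, adjusted p = 0.0155) and Batf 1.54-fold (0.63, SE 0.14, adjusted p = 0.0296). The Hyper-IL-6 and parental GFP-PFC comparisons with rest share the 3 unstimulated arrays, so the direct contrast is the one to read.

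The Fos signals with GFP-PFC were 8.72, 8.85 and 8.63, within the range of unstimulated cells. Those of Junb were 9.07, 9.23 and 9.15, and those of Fosl2 10.30, 10.28 and 10.47. Each of these lies below the lowest Hyper-IL-6 array of its gene, 9.29, 10.13 and 10.67. Batf, at 8.75, 9.11 and 8.86 with GFP-PFC, also stayed below its lowest Hyper-IL-6 array at 9.24. Without Hyper-IL-6 array 4 or 6 the calls of Fos, Fosl2 and Batf ended, leaving 1 gene called, Junb, which kept its call under all 16 settings. Without GFP-PFC array 2, 2 were called, because the calls of Fosl2 and Batf ended. That of Fosl2 also ended without GFP-PFC array 4, and that of Batf without GFP-PFC array 6.

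Fosl1, Fosb and Jun did not pass in the direct contrast. Their differences, Hyper-IL-6 minus GFP-PFC, were 0.20 with a 95% interval of -0.27 to 0.67, 0.11 (-0.75 to 0.96) and 0.054 (-0.52 to 0.63). The GFP-PFC signals of Fosb were 10.31, 11.08 and 10.83 against 10.34, 11.07 and 11.13 with Hyper-IL-6, and those of Jun were 9.96, 10.32 and 10.54 against 9.88, 10.59 and 10.51. The groups overlap for both genes over nearly their whole range. The interval reaches 1.54-fold for Jun, so the test does not show that the stimulations act alike on them. Maff (0.34, adjusted p = 0.481), Jund (0.12) and Atf3 (0.076) did not pass either.

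The constructs alone moved no AP-1 gene past the threshold. In unstimulated cells 0 of 10 were called in CIR-1, CIR-2 and CIR-3 against parental cells, where 1.73%, 1.2% and 1.49% of all genes were called in limma. With GFP-PFC 0 of 10 were called again (1.64%, 1.17% and 1.24%). At an unadjusted p under 0.05, 0 AP-1 genes passed in 5 of these 6 comparisons. Of all genes 8.66%, 8.08% and 12% did at rest and 8.2%, 6.87% and 7.71% with GFP-PFC. The exception was Jun in CIR-2 with GFP-PFC, where the difference was -0.59 (adjusted p = 0.71).

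Fos was the lowest of these relative to parental cells at rest. Its parental signals of 8.64, 8.88 and 8.44 compare with 8.28, 7.94 and 7.86 in CIR-1. The CIR-2 line gave 8.25, 8.07 and 8.08, and the CIR-3 line 8.07, 8.09 and 8.70. The groups did not overlap for CIR-1 and CIR-2. Of the 10 genes, 2 (Fos and Fosl2) were lower without overlap in CIR-1 and 1 (Fos) in CIR-2, against 4.9% and 5.83% of all genes. The differences were -0.63 (SE 0.31, adjusted p = 0.603), -0.52 (adjusted p = 0.79) and -0.37 (adjusted p = 0.661). Their 95% intervals run from -1.27 to 0.019 for CIR-1 and from -1.16 to 0.13 for CIR-2. None of these AP-1 differences was called, whereas some cell type markers were. Of 38 markers, 5, 3 and 4 were called at rest in CIR-1, CIR-2 and CIR-3 against parental cells. Of 6 mast-cell and basophil markers 1 was called in each line, the receptor chain Fcer1a, with differences of -4.10, -4.06 and -4.09 for the CIR-1, CIR-2 and CIR-3 lines. The myeloid enzyme gene Mpo differed by -1.55, -1.51 and 1.02 in that order, and the lysozyme gene Lyz2 was lower in CIR-3 (-0.79). The erythropoietin receptor gene Epor was higher in all 3 lines (0.37, 0.45 and 0.29), and Gata1 (0.43) and Klf1 (0.68) were higher in CIR-1. The part of such cells in the AP-1 values was not tested. Fosl2 in CIR-3 was called only without the arrays numbered 1 and 2, at 0.26 at rest (adjusted p = 0.0465) and 0.44 with GFP-PFC (adjusted p = 0.0111). Under that setting 16.2% of all genes were called at rest and 1.72% with GFP-PFC, so that 1 of 10 AP-1 genes at rest is no more than the background.

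Genes around AP-1 were counted from lists that were chosen with earlier results of these data known. Of all genes, 0.733% were called higher after Hyper-IL-6 and 0.186% after GFP-PFC over the mean of the 4 lines. In the direct contrast 0.492% were called higher with Hyper-IL-6. The list counts of each comparison are to be read beside these shares. Of 23 measured genes for other bZIP partners and relatives, 3 rose after Hyper-IL-6: Nfil3, a transcriptional repressor (0.98), and the CCAAT/enhancer-binding proteins Cebpd (0.93) and Cebpb (0.52), all of which are known cytokine-responsive factors. In the direct contrast Nfil3 (0.73), Cebpd (0.74) and Cebpb (0.39) were higher with Hyper-IL-6. Of 18 kinases and serum-response factors upstream of AP-1, 0 were called in limma in either stimulation (1 after Hyper-IL-6 and 3 after GFP-PFC had an unadjusted p under 0.05), and the median difference after Hyper-IL-6 was 0.032. Of 22 textbook AP-1 targets, 2 rose after Hyper-IL-6, Il6 (1.89) and the growth factor Vegfa (0.51). After GFP-PFC 2 rose over the mean of the 4 lines, the urokinase receptor Plaur (0.47) and Il6 (0.64), and 0 of 23 partners (5 at an unadjusted p under 0.05).

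Of 16 other immediate early genes, 10 rose after Hyper-IL-6, among them the mRNA decay factor Zfp36 (2.97), the stress gene Gadd45b (1.14), the nuclear protein gene Csrnp1 (1.96) and Ier3 (2.73), a survival-linked early gene. After GFP-PFC 4 rose over the mean of the 4 lines, Ier2 (0.40), Egr2 (1.03), Myc (0.58) and the kinase Plk3 (1.03). The counts in the direct contrast were 5 of 16 immediate early genes and 1 of 22 targets, Il6, higher with Hyper-IL-6. In unstimulated CIR-1 and CIR-2 cells, 1 of 22 targets was higher than in parental cells, the cytokine gene Tgfb1 (0.27 and 0.30). Of all genes 1.73% and 1.2% were called there in either direction. In CIR-1 with GFP-PFC 1 of 23 partners, Nfe2 (0.49), 1 of 18 kinases, Mapk14 (0.24), and Tgfb1 (0.23) were higher, and 1.64% of all genes were called in either direction. A single gene per list does not set these lists apart from that background.

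The genes most like each AP-1 gene were taken by Pearson correlation over the 9 group means, among 840 candidate genes whose means span at least 0.5, as a description. Fos was most like Ier3, the signalling inhibitor Spry2 and Junb, each with r = 0.98. Junb was most like the cytokine gene Osm (0.99), Ier5 (0.99) and Arid5a (0.99). Fosl1 and Fosb were most like Dusp6, an ERK phosphatase (0.99 and 0.97), and like each other (0.97). The remaining gene was Hhex for Fosl1 (0.97) and Dusp5 for Fosb (0.94). Jun was most like Plaur (0.98), the phosphatase Dusp16 and Snora75 (0.97 each).

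Fosl2 was most like Mafk (0.99), Cebpd (0.99) and Nfil3 (0.98). Batf was most like Metrnl (0.99), the kinase Pim1 and Lfng (0.96 each), and Maff like Spry2 (0.97), Klf9 and Nfkbiz (0.96 each). Without the Hyper-IL-6 group, over 8 means, r for Fosl1 with Dusp6 was 0.99 and for Fosb with Fosl1 0.97, but for Fos with Junb 0.90 and for Batf with Lfng 0.72. The points share the deposited normalization and come from 3 arrays each. Over the 27 single arrays r ran from 0.26 for Maff with Klf9 to 0.98 for Junb with Osm, and was 0.37 for Fosl1 with Hhex.

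Exon-level probe sets of the same arrays gave the members a finer view. All 4 probe sets of Fos were higher after Hyper-IL-6, from 1.18 to 1.91, as were all 3 of Junb, from 0.89 to 2.30, all 4 of Fosl2, from 1.02 to 1.26, and all 5 of Fosb, from 0.69 to 1.11. The 6 of Jun ran from 0.034 to 1.09. Fosl1 has only 2, and they disagreed. The brighter (mean signal 9.59) differed by 0.094 after Hyper-IL-6 and -0.01 after GFP-PFC. The dimmer (8.16) differed by 1.11 and 0.82. As the mean of these probe sets, Fosl1 differed by 0.60 after Hyper-IL-6 (adjusted p = 0.302 in limma) and 0.41 after GFP-PFC (adjusted p = 0.082), and both calls ended.

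The 3 probe sets of Maff ran from -0.041 to 1.34 after Hyper-IL-6. The lowest difference came from the brightest probe set (mean signal 9.53) and the highest from the dimmest (5.34). The 4 of Batf ran from 0.037 to 0.83, so that for these genes the gene-level value averages unlike probe sets. At the exon level the direct contrast of Batf was no longer called (adjusted p = 0.357), whereas Junb was called after GFP-PFC (0.29, adjusted p = 0.0286). Of the 6 probe sets of Atf3, 3 were higher after Hyper-IL-6, with a median of 0.049.

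**Figure D4:**
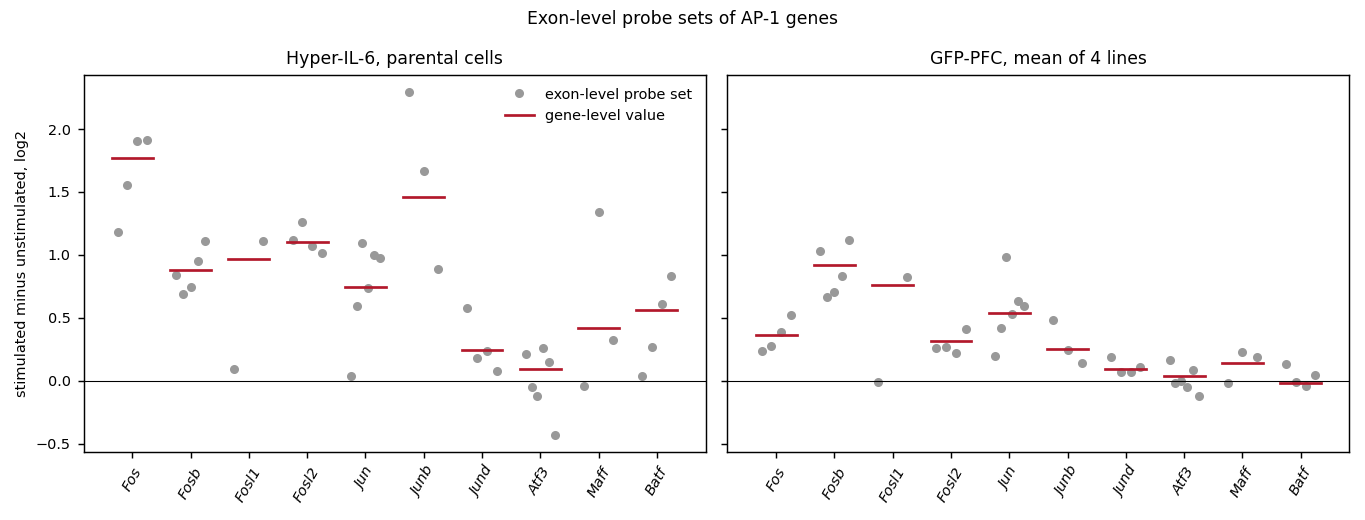
Difference in log2 signal of each exon-level probe set of the AP-1 genes (points) and of the gene-level value (bars), for Hyper-IL-6 in parental cells on the left and the mean GFP-PFC difference of the 4 lines on the right. The 2 Fosl1 points lie far apart on both sides, at 0.094 and 1.11 on the left, while the 4 Fosl2 points lie between 1.02 and 1.26 there.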

How the data were processed

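Total RNA of mouse Ba/F3-gp130 cells was hybridised to 27 Affymetrix arrays, 3 per group. The authors deposited gene-level and exon-level values of the same arrays, made with Affymetrix Expression Console as core-gene and core-exon analyses, per the labels. The deposited values, from 2.97 to 14.9, were read as log2 signals. The log base, the summary algorithm, its version and the genome build are not given in the sources used here. Gene symbols came from GEO's platform annotation, brought up to date through RefSeq (23 symbols updated). Of 35556 gene-level probe sets, 21789 had 1 symbol, 1621 several and 12146 none. The probe set with the highest mean was kept, which gave 19920 genes.

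Each comparison was a contrast in 1 limma fit (limma 3.58.1, R 4.3.3) with a mean per group of 3 arrays, with two-sided moderated tests, p-values adjusted by Benjamini-Hochberg across all 19920 genes and a threshold of 0.05. The Hyper-IL-6 comparison with rest and the GFP-PFC mean of the 4 lines were tested on simulated data. The noise there was independent between arrays, so deviations shared by arrays of a block were not part of it. The 10 genes, the gene lists, the tests and the alternatives were chosen with earlier results of these data known. All 10 AP-1 genes are named. Of other lists the calls with the smallest p are named, at most 4 per list and comparison. The array number was checked as a block of 3 levels (1 and 2, 3 and 4, 5 and 6). The deviations of equally numbered arrays of different lines correlated at 0.14 to 0.76 over genes (36 pairs), and those of consecutive arrays of a line at 0.28 to 0.63 (12 pairs). Those of arrays from different blocks correlated at -0.62 to 0.45 (168 pairs), so the ranges overlap. The labels do not say what the numbers mark. From these correlations alone the numbers were taken to pair the unstimulated and GFP-PFC arrays. The main fit leaves this pairing out, and only the fits with the replicate block use it. The Hyper-IL-6 arrays correlated with their block at -0.46 to 0.060 (24 pairs) and are not paired by it. Promoters are RefSeq sequences read from the table given, not from a genome. The number of arrays limits the precision.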

Additional observations from a re-analysis of the deposited data

How the results depend on the processing

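Of 3010 values of single AP-1 genes under other settings, 2774 kept their direction and side of the threshold, 31 lost a call, 53 gained one, 152 values that were not called changed sign, and 0 called values changed sign. The counts of the 10 genes called follow, with the share of all genes called under the same setting in brackets. After Hyper-IL-6 the count was 4 (0.773%), 1 when only the compared arrays were fitted (0.156%) and 7 with array weights (17.4%), with 3 to 6 when 1 array was left out. For the GFP-PFC mean of the 4 lines it was 1 (0.221%), and it was 5 with the replicate block (0.758%, or 1.32% without the Hyper-IL-6 arrays), 3 from the compared arrays only (0.296%), 6 when arrays 1 and 2 were dropped (4.74%), 5 with array weights (5.38%), and 1 to 3 with 1 array left out. For the 3 CIR lines it was 1 (0.0803%), and 3 with the replicate block (0.392%, or 0.592% without the Hyper-IL-6 arrays), 3 when arrays 1 and 2 were dropped (0.216%), 3 with array weights (0.341%), 0 with exon-level values (0.0884%), and 0 to 2 with 1 array left out. In parental cells with GFP-PFC it was 0 (0%), and 1 (Fosl1) with array weights (5.07%). In CIR-3 it was 0 (0%), and 1 (Fosl1) with the replicate block (0.0502%, or 0.0954% without the Hyper-IL-6 arrays), and 0 to 1 with 1 array left out. Between the stimulations it was 4 (0.507%), and 1 from the compared arrays only (0.331%) and 1 to 4 with 1 array left out. For CIR-3 against parental cells it was 0, and 1 (Fosl2) without the arrays numbered 1 and 2, both at rest (16.2%) and with GFP-PFC (1.72%). Array weights and dropping arrays 1 and 2 thus raised the calls over all genes as well. The block changed no other call apart from that of Batf after Hyper-IL-6. The cause of these changes was not tested.

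Counts over all genes moved too. After Hyper-IL-6 154 genes were called, with 31 when only compared arrays were fitted and 3673 without the arrays numbered 1 and 2. For the GFP-PFC mean of the 4 lines 44 were called, with 34 to 1071 across settings. Other scalings, by quantiles or by array medians, moved the median difference of all genes by less than 0.1. With 3 arrays a group, the standard error of a difference between 2 groups ran from 0.096 for Atf3 to 0.41 for Fosb, which limits what a single line can show.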
